A study of Mus musculus with 103 samples.

Results

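Keratins and claudins were followed over 8 mouse tissues and a universal RNA. The members were all probe sets with 1 gene symbol that began with Krt or Cldn and a digit. They came to 76 of the 22690 probe sets of the array, for 59 of 12394 genes with a single symbol. Of these genes, 40 were keratins and 19 were claudins, and 10 of them had several probe sets, up to 4 for a gene. A gene with several probe sets is represented by the brightest over the tissue and universal arrays unless another is named.

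Of the 103 arrays in the series, 74 entered the comparisons: 16 of tissue RNA and 58 of universal RNA. Arrays of sorted cells were read for Cldn13 alone. The tissue RNA came from a commercial panel (embryo, lung, kidney, ovary, spleen, heart, and RNA labelled brain and liver). Each tissue was labelled once from 500 pg by the BIIB protocol, an amplification method for small amounts, and once from 1 ug by the standard one-cycle protocol. The universal RNA, a commercial pool of mouse RNA, was labelled by BIIB from 10, 50, 100 or 500 pg or 1 or 5 ng with 4 arrays each, and by the two-cycle, Ovation and RiboAmp HS kits from 50 or 500 pg or 5, 50 or 500 ng with 2 arrays each. Its reference was the one-cycle protocol at 1 ug with 4 arrays. The labels give no strain, sex or age, and none of the compared groups carries a mutation or a treatment. The 2 arrays of a tissue are 1 panel RNA labelled by different protocols, and no label says that arrays were made from separate animals. With 1 array per tissue and protocol, tissue p-values rest on how unevenly the protocols differed from tissue to tissue, not on repeat arrays. In universal RNA, p-values measure the spread between arrays, which may be technical. Comparisons that use both sets rest on both.

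Keratins are the intermediate filament proteins of epithelial cells. A type I keratin pairs with a type II keratin, and the pair in use differs between simple, stratified and hair-forming epithelia. Claudins are the membrane proteins of tight junctions. Some seal the space between neighbouring cells and others form paracellular pores, so the claudins present help set what an epithelium or endothelium lets through. In whole-organ RNA, fewer cells of a type and less RNA per cell cannot be told apart.

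2 tissue labels went against their markers. In the arrays labelled brain, 9 of 9 hepatocyte genes measured were at their highest of all tissues by both protocols, and albumin had signals of 1383219 by BIIB and 389047 by one-cycle. In the arrays labelled liver, 7 of 7 neuronal, 4 of 4 astrocyte and 6 of 6 myelin genes were at their highest, and Snap25 had signals of 168377 by BIIB and 59507 by one-cycle. Both are therefore called the arrays labelled brain and the arrays labelled liver below. The markers of the other organs were at their highest in the tissue named on the label for 8 of 8 heart, 8 of 8 kidney, 6 of 7 lung, 7 of 8 ovary, 6 of 7 spleen lymphocyte and 5 of 7 embryo genes. Median signals over all probe sets of the 16 tissue arrays lay between 432 and 974.

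The gene starts of members that set the tissues apart are shown first, as the 120 bases upstream of the start from RefSeq on build GRCm38.p6, written 5′ to 3′ in the direction of the gene. Capitals mark 4 motifs searched on both strands. The TATA box was searched as TATAAA. For the box bound by Sp1, the letters searched were GGGCGG. Another is known by its own letters, the CCAAT box, and the last, the AP-1 site, was searched as TGANTCA. On the opposite strand a match appears as its reverse complement. These are Krt8 and Krt18, the keratin pair of simple epithelium, Krt7 and Krt10, which led in lung and embryo, and 4 claudins that differed between tissues.
Krt8, chr15:102004343-102004462, reverse strand: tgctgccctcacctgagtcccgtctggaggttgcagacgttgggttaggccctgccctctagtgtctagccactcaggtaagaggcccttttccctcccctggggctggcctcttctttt
Krt18, chr15:102028096-102028215, forward strand: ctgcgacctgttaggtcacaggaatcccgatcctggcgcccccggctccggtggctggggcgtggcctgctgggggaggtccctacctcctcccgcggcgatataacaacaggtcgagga
Krt7, chr15:101412283-101412402, forward strand: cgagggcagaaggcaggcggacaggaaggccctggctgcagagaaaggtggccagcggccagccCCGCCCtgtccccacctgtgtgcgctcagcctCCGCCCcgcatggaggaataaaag
Krt10, chr11:99389365-99389484, reverse strand: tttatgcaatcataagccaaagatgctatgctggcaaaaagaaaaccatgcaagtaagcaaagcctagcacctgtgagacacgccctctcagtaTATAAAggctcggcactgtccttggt
Cldn2, chrX:139800688-139800807, forward strand: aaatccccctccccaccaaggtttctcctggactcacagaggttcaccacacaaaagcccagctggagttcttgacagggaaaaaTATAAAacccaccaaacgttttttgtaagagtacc
Cldn3, chr5:134986094-134986213, forward strand: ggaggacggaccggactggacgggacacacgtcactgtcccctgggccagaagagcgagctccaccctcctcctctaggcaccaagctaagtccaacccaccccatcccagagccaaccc
Cldn5, chr16:18776727-18776846, forward strand: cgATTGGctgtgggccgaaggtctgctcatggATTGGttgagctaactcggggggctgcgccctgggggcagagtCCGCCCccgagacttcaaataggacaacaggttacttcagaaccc
Cldn18, chr9:99717268-99717387, reverse strand: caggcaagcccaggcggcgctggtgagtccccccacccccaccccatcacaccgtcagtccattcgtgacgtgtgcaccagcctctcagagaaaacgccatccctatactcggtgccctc
Krt10 has the TATA box letters beginning 26 bases and Cldn2 35 bases before the start. Krt7 has the opposite-strand GC box at 56 and at 24 bases, and Cldn5 has 1 at 45 bases beside CCAAT boxes at 118 and 88 bases. Krt8, Krt18, Cldn3 and Cldn18 hold none of these letters in the window, and the first 2 of them followed each other closely between tissues. Entries were found for 40 of the 59 genes, with 47 starts in all. The TATA box letters stood in 23.4% of these starts and in 6.34% of all 32851 promoters searched over the same length. Of the 11 member starts with these letters, that of Cldn2 was the only claudin start. The rest were keratin starts, all but Krt71 on chromosome 11, so the share does not describe claudins. The GC box stood in 25.5% of member starts against 26.5% of all, the CCAAT box in 23.4% against 21.3%, and the AP-1 letters in 2.13% against 3.41%. A match is a description of the letters and not of a bound site. No motif in the list is contained in another.

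A signal is the deposited MAS5 intensity of a probe set, on a linear scale with no unit. Changes set a probe set's signal only against its own signal in other arrays. The common level of 500 and the choice of the brightest probe set do compare signals between probe sets, which may differ in how well they bind. Of the 59 genes, 42 reached a signal of 500 on both arrays of at least 1 tissue. The remaining 17 were Cldn6, Cldn9, Cldn19, Cldn23, Cldn34c1 and 12 keratins, mostly of hair (Krt2, Krt16, Krt31, Krt32, Krt33a, Krt35, Krt72, Krt75, Krt81, Krt82, Krt83 and Krt88). On both arrays of a tissue, 28 keratins and 8 claudins reached that signal in embryo, 7 and 6 in lung, 5 and 9 in kidney, 5 and 5 in ovary, 5 and 5 in the arrays labelled brain, 2 and 1 in heart, 2 and 4 in the arrays labelled liver, and 0 and 3 in spleen. Embryo had the most keratins at this level, on both arrays and by each protocol. Kidney had the most claudins on both arrays, but by single protocols embryo had more, with 10 by BIIB and 11 by one-cycle against 9 and 10 in kidney, and ovary had 11 by one-cycle. In spleen, 0 keratins reached the level by BIIB and 1 by one-cycle.

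**Figure D1:**
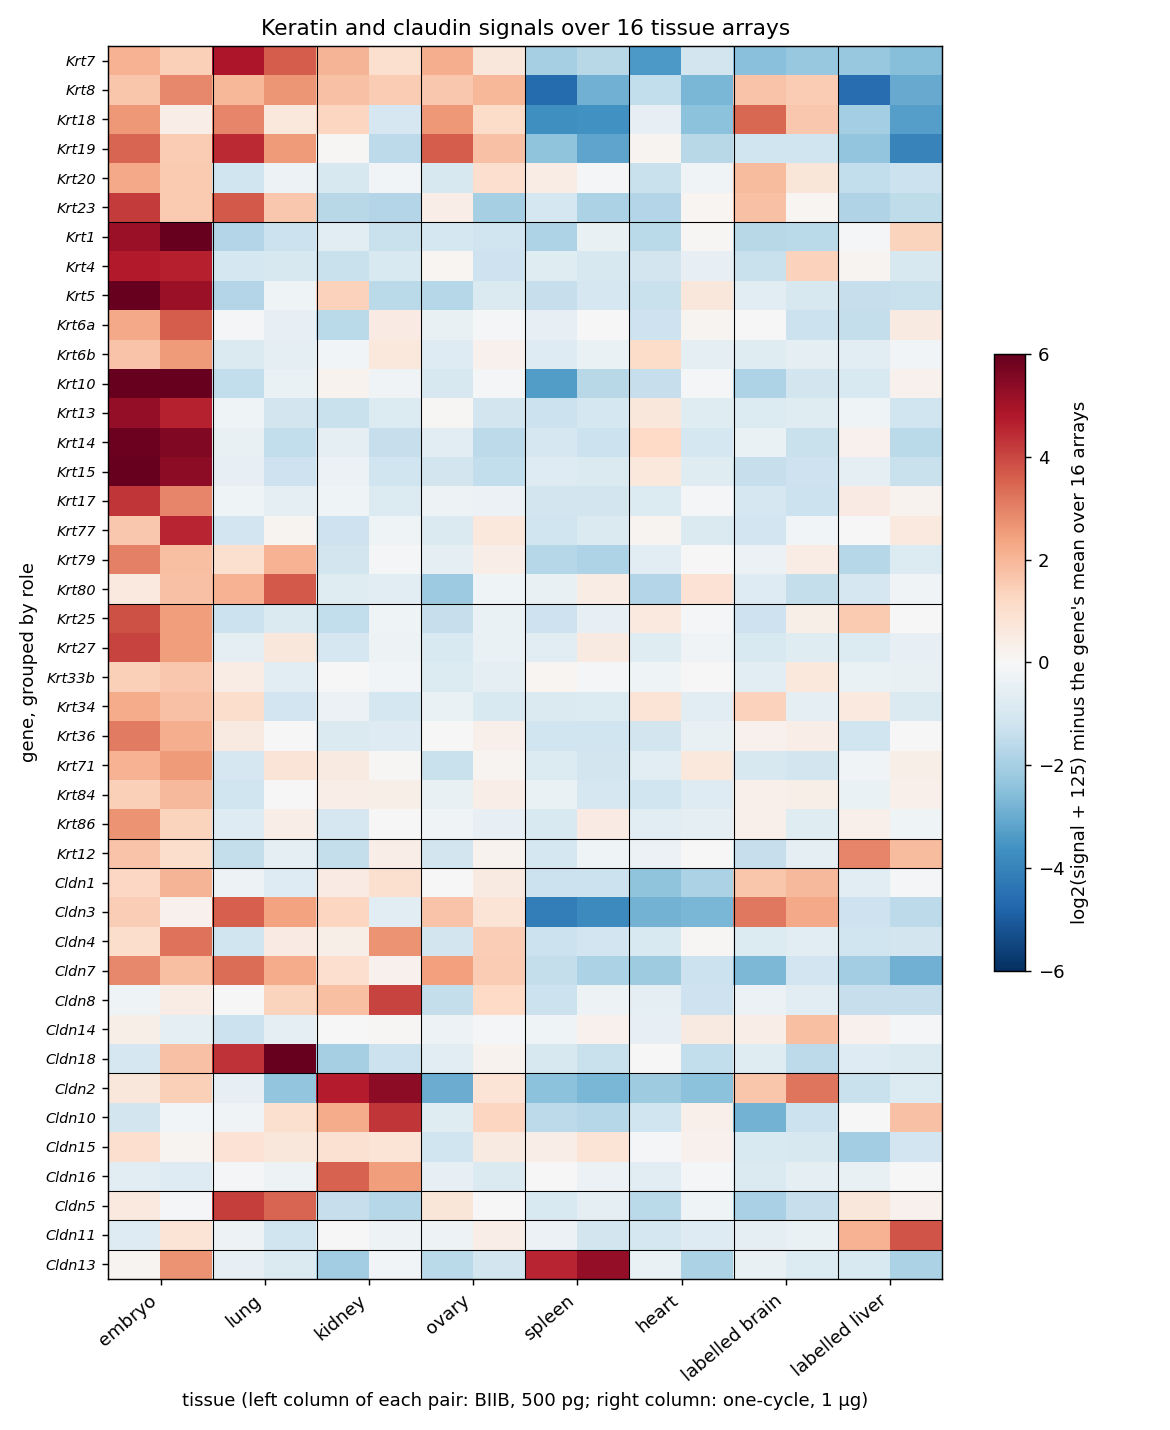
The 42 genes that reached a signal of 500 on both arrays of a tissue, as log2(signal + 125) minus the gene's mean over the 16 tissue arrays, with each tissue's BIIB array left of its one-cycle array and horizontal lines between role groups. Stratified keratins were high in embryo, simple keratins were low in spleen and in the arrays labelled liver, and Cldn2, Cldn18 and Cldn13 each stood out in 1 tissue.

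Each tissue was then compared with the mean of the other 7 by limma on log2(signal + 125), with protocol in the model. A gene was called where the p adjusted over all 15180 probe sets tested (Benjamini-Hochberg) was under 0.05 and the change was at least 2-fold, that is 1 on the log2 scale. Probe sets with a mean signal under 500 over the 16 arrays were not tested, which left 28 of the 59 genes. A gene high in a single tissue passes that filter only through it, so the counts below describe these genes and support nothing beyond that. Such a gene also raises the mean of the other 7 for every other tissue. A gene high in embryo alone can thus be called lower where it is near the floor, as Krt1, Krt14 and Krt15 were. All 28 varied across tissues by limma's F test, where 73.5% of all probe sets tested did.

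Embryo had the keratins of layered epithelium. Of the 28 genes tested, 19 were called higher and 0 lower (10.3% and 5.71% of all probe sets tested). Among the keratins of stratified epithelium on the array, 11 of 15 were called higher. Krt1 and Krt10, the pair of the upper layers of epidermis, led: Krt10 had signals of 118220 by BIIB and 147301 by one-cycle in embryo, against a lowest of 14.7, a median of 612 and a highest of 1557 in the other 14 arrays. Krt1 had signals of 16809 by BIIB and 118766 by one-cycle in embryo, against 4.8, 77.5 and 1085 as the lowest, median and highest elsewhere. Neither gene's embryo arrays overlapped the rest, and the log2 changes were 7.47 ± 0.34 for Krt10 and 7.50 ± 0.51 for Krt1 (SE, limma adjusted p = 9.08e-08 and 1.28e-06).

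The pair of the basal layer, Krt5 and Krt14, was as clear in embryo. Krt5 had 63955 by BIIB and 17839 by one-cycle in embryo, against a lowest of 23.3, a median of 99.2 and a highest of 1166 elsewhere. Krt14 had 24999 and 20094 in embryo, against 15, 84.8 and 851 elsewhere. The log2 changes were 6.96 ± 0.72 and 6.52 ± 0.35 (SE, limma adjusted p = 3.67e-05 and 2.01e-07). Another Krt14 probe set read 20710 by BIIB and 14720 by one-cycle in embryo, while the last one stayed at 577 or below in every tissue array. Krt15, a basal keratin, rose by 6.89 ± 0.30. Krt13 and Krt4, the pair of the upper layers of internal linings such as the oesophagus, rose by 5.64 ± 0.35 and 5.39 ± 0.56. Krt17, a keratin of skin appendages, rose by 4.12 ± 0.31, Krt77 by 3.53 ± 0.51 and Krt6a by 3.39 ± 0.54 (limma adjusted p at or under 0.000901 for these 6). Krt6a and Krt6b, and Krt14, Krt16 and Krt17, are close in sequence, so their probe sets may share targets and their separate values are uncertain.

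Hair follicle keratins were also in embryo. Krt25, of the inner root sheath, had 5327 by BIIB and 2119 by one-cycle in embryo, against at most 1037 elsewhere, and rose by 3.62 ± 0.54 (SE, limma adjusted p = 0.000579). It was the 1 gene of 16 in the hair, nail and root sheath list that passed the filter. Krt27 (4228 and 1368 in embryo, against at most 296) and Krt36 (3125 and 1564 in embryo, against at most 412) did not overlap the other tissues either. With no filter on signal, 32 of the 59 members were called higher in embryo and 0 lower, where 11.6% of 22626 probe sets were called either way. Among them were Krt27 (3.74 ± 0.42), Krt36 (3.03 ± 0.35) and Krt71 (2.65 ± 0.41, SE, limma adjusted p at or under 0.000849), and Cldn4 (2.46 ± 0.48, adjusted p = 0.00422).

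The simple keratins Krt19 (2.87 ± 0.35), Krt8 (2.61 ± 0.46) and Krt18 (1.70 ± 0.38), and the sealing claudins Cldn7 (2.69 ± 0.46) and Cldn1 (1.89 ± 0.26), were higher in embryo too (limma adjusted p at or under 0.00819). Their embryo arrays overlapped those of other organs, in which these genes were also bright. Epidermal genes outside the keratins moved with them: 7 of 9 on the array were called higher, led by Lor, the cornified envelope protein (8.73 ± 0.49), Sprr1a, Flg and Ivl. Of 17 desmosome and keratin-linker genes, 8 were called higher and 0 lower, led by Pkp1 (5.12 ± 0.35) and Ppl (3.16 ± 0.49). Without the embryo BIIB array the calls of Cldn7, Krt18 and Krt23 ended, and without the one-cycle array that of Krt8. The call of Krt7 (2.02 ± 0.55) ended without either, and without the arrays labelled brain and liver.

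Lung had a simple epithelial set with its own claudins. Among 28 tested, 11 were called higher and 3 lower (12.4% and 9% of all probe sets tested), and 5 of the 6 simple keratins on the array were among those higher. Cldn18, a sealing claudin of the alveolar epithelium and stomach, had 12236 by BIIB and 52550 by one-cycle in lung, against a lowest of 29.9, a median of 201 and a highest of 1939 elsewhere (6.14 ± 0.63, SE, limma adjusted p = 4.03e-05). Its other probe set had 41591 and 30678 in lung, against at most 1067 elsewhere (6.81 ± 0.28, adjusted p = 1.02e-07). Both probe sets separated lung from every other array.

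Cldn5, the claudin of endothelial cells, had 65285 by BIIB and 40983 by one-cycle in lung, against a lowest of 819, a median of 2609 and a highest of 5879 elsewhere (4.36 ± 0.37, SE, limma adjusted p = 1.13e-05). It was above 500 on every tissue array. All 8 endothelial genes on the array were called higher in lung, led by Tek (3.81 ± 0.25) and Cdh5 (3.33 ± 0.34). Krt7, a keratin of glandular and ductal cells, had 44091 and 19143 in lung, against 16.3, 483 and 6883 elsewhere (4.84 ± 0.55, adjusted p = 7.84e-05). Krt80 also stood apart, with 2662 and 8204 in lung against at most 2116 (3.29 ± 0.47, adjusted p = 0.000385).

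Krt19 had 63221 by BIIB and 16552 by one-cycle in lung, against a lowest of 53.7, a median of 1137 and a highest of 35228 elsewhere (3.99 ± 0.35, SE, limma adjusted p = 1.47e-05). Cldn3 (3.42 ± 0.36), Cldn7 (3.18 ± 0.46), Krt23 (3.04 ± 0.67), Krt8 (2.65 ± 0.46) and Krt18 (2.04 ± 0.38) were higher as well, with overlapping arrays (adjusted p at or under 0.00589). Krt1, Krt14 and Krt10, keratins of stratified epithelium, were called lower, and each of those calls ended when either lung array was left out. Krt18 and Krt23 lost their calls without the BIIB array and Krt79 (1.74 ± 0.39) without the one-cycle array. Of 20 epithelial identity genes, 14 were called higher and 0 lower, led by Muc1 (4.99 ± 0.24) and Elf5 (3.91 ± 0.35). Of 18 other tight junction genes, 10 were called higher and 0 lower, led by Pard6b (3.17 ± 0.57), Tjp1 (2.23 ± 0.27), the scaffold that claudins bind, and Ocln (2.08 ± 0.44). Heart muscle genes were higher in lung too, in 6 of 8 (Myl7, 5.33 ± 0.33), and their part in these results was not tested.

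**Figure D2:**
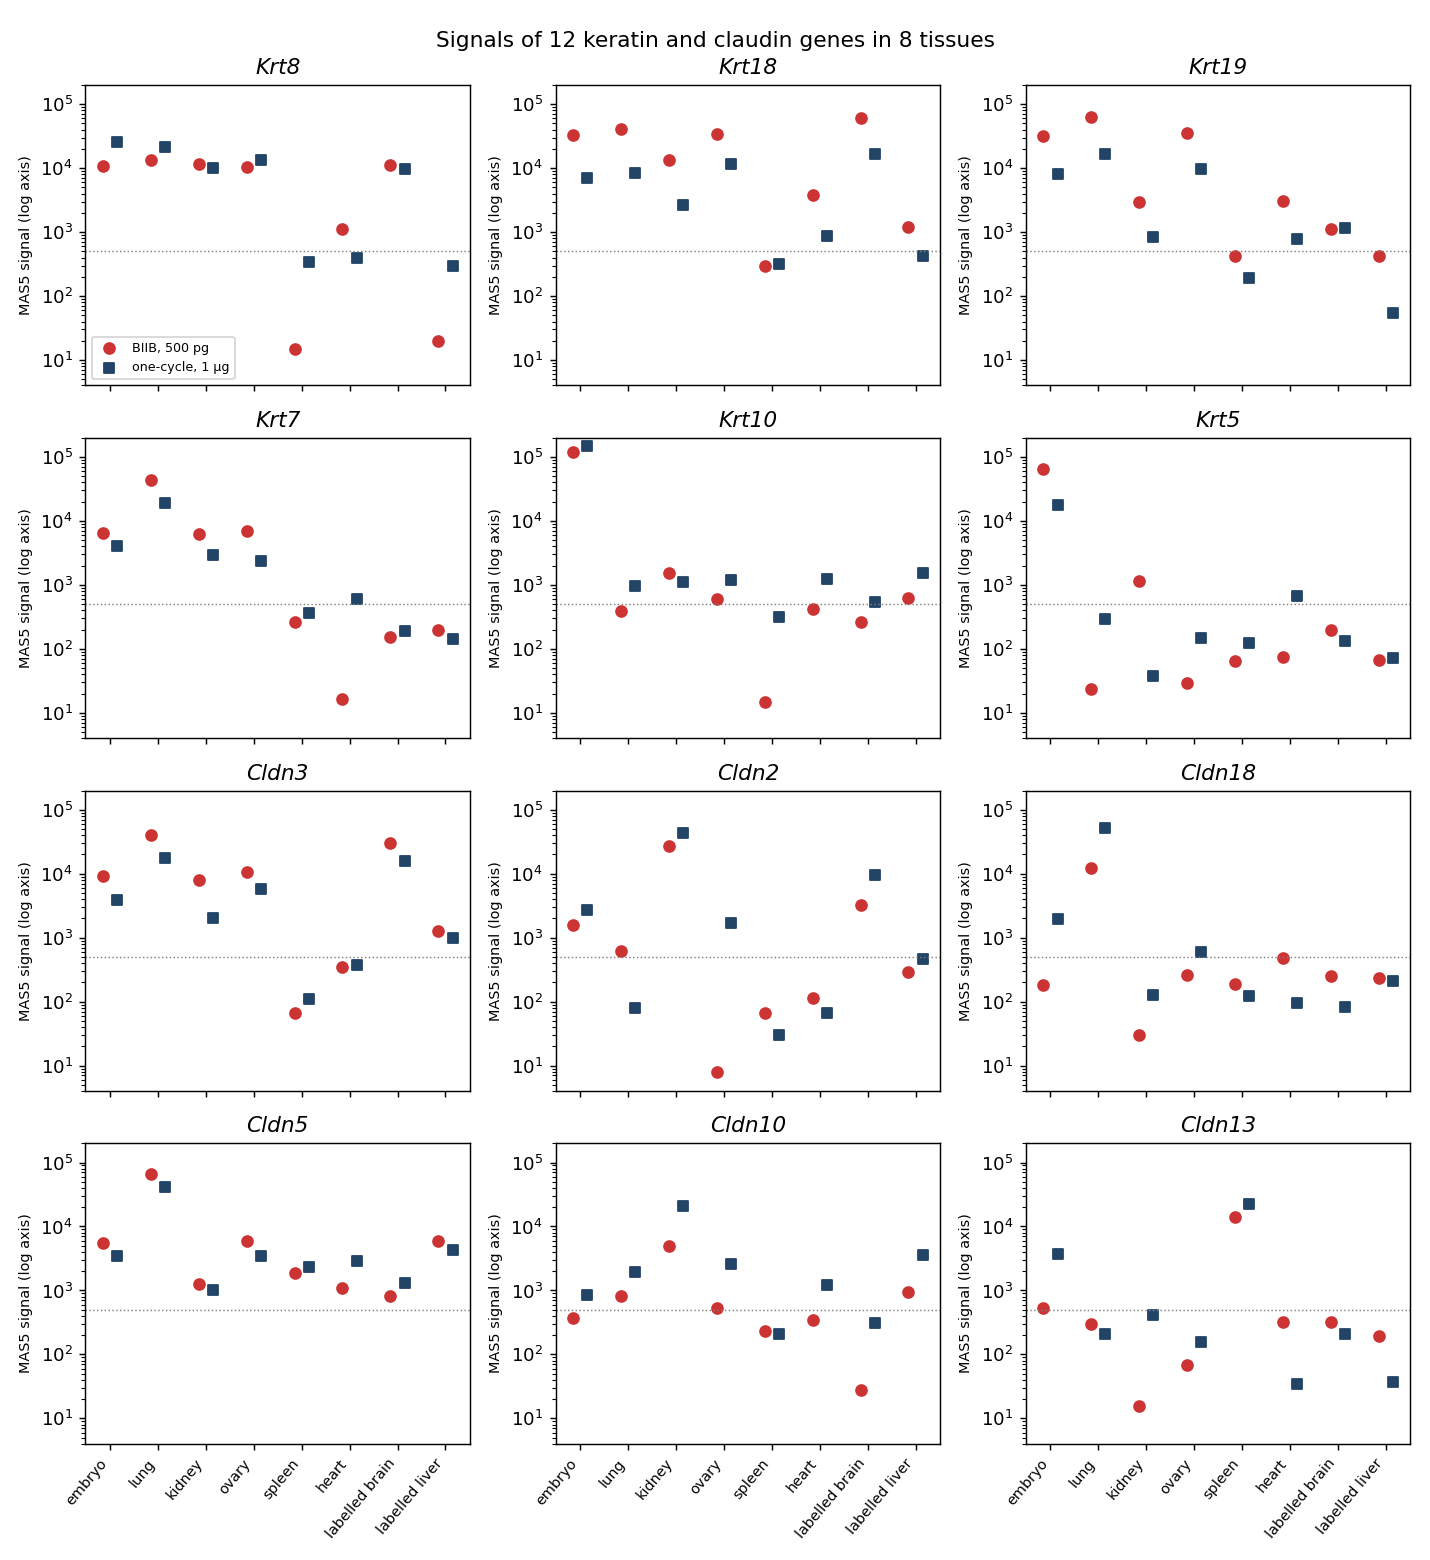
MAS5 signals (log axis) of 12 genes in 8 tissues, BIIB at 500 pg as circles left of one-cycle at 1 ug as squares, with a dotted line at 500. Krt10 and Krt5 peaked in embryo, Krt7, Cldn18 and Cldn5 in lung, Cldn2 and Cldn10 in kidney and Cldn13 in spleen, while Krt8 lay between 9814 and 25438 in 5 tissues.

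Kidney differed by claudins that line the nephron. Here, of 28 tested, 5 were called higher and 5 lower (10.6% and 12.4% of all probe sets tested). Cldn2, a cation and water pore of the proximal tubule, had 27590 by BIIB and 42780 by one-cycle in kidney, against a lowest of 7.9, a median of 381 and a highest of 9627 elsewhere (5.75 ± 0.71, SE, limma adjusted p = 9.87e-05). Its second probe set was called as well. Cldn10, which forms paracellular channels in several nephron segments, had 4873 and 20945 in kidney, against 27.6, 670 and 3520 elsewhere (3.71 ± 0.35, adjusted p = 1.34e-05). Cldn8, of the distal nephron, had 1093 and 5726 in kidney, against 4.3, 135 and 749.5 elsewhere (3.35 ± 0.53, adjusted p = 0.000631). None of the 3 overlapped the other tissues.

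Cldn16, the thick ascending limb claudin needed for magnesium uptake, was under the filter level on average. It had 2856 by BIIB and 1316 by one-cycle in kidney, against at most 134 elsewhere. Without the filter it was called at 3.46 ± 0.31 (SE, limma adjusted p = 8.78e-06), as was Cldn4 at 1.73 ± 0.48 (adjusted p = 0.0249). Cldn4 showed 271 by BIIB and 1839 by one-cycle in kidney, so its 2 arrays did not give a like level. Its neighbour on chromosome 5, Cldn3, had 8046 and 2062 in kidney. Cldn3 and Cldn4 did not run together over the 8 tissues (r = 0.30 by one-cycle and 0.26 by BIIB, across tissues that share the panel). Krt8 (1.88 ± 0.46) was higher in kidney, a call that ended without the BIIB array, but Krt18 was not called (0.17 ± 0.38, adjusted p = 0.784). The call of Krt7 (1.70 ± 0.55) ended without either kidney array and without the arrays labelled brain and liver. Without those 4 arrays the kidney calls came to 6 higher and 10 lower. Of the 5 lower calls, those of Cldn18, Krt14 and Krt23 ended when either kidney array was left out, that of Cldn5 without the one-cycle array and that of Krt13 without the BIIB array.

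Ovary shared simple keratins with lung and embryo. Of 28 tested, 5 were called higher and 2 lower (8.83% and 6.59% of all probe sets tested). Krt19 had 35228 by BIIB and 9617 by one-cycle in ovary, against a lowest of 53.7, a median of 1137 and a highest of 63221 elsewhere (3.07 ± 0.35, SE, limma adjusted p = 0.000135). Cldn7 (2.30 ± 0.46), Krt18 (2.14 ± 0.38), Krt8 (2.06 ± 0.46) and Cldn3 (1.43 ± 0.36) were also higher, all with arrays that overlapped other organs (adjusted p at or under 0.0173). Krt15 and Krt14 were lower by 1.46 and 1.28. Krt19 alone was called under every alternative. The calls of Krt8, Cldn3 and Krt14 ended without either ovary array, those of Cldn7 and Krt15 without the BIIB array and that of Krt18 without the one-cycle array. Mesothelial Upk3b was higher in ovary (4.25 ± 0.52), as it was in lung (4.55 ± 0.52). Its part in the keratin values was not tested.

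Spleen was low in the simple pair Krt8 and Krt18 and in Cldn3, and high in 1 claudin. By the same test of 28 genes, 1 was called higher and 14 lower (14.8% and 19.5% of all probe sets tested). Krt8 had 15 by BIIB and 335 by one-cycle in spleen, against a lowest of 19.7, a median of 10675 and a highest of 25438 elsewhere (-4.30 ± 0.46, SE, limma adjusted p = 2.92e-05). Krt18 had 298 and 312 in spleen, below all other arrays (-4.20 ± 0.38, adjusted p = 8.57e-06). Cldn3 had 65.4 and 110 in spleen, also below all others (-4.55 ± 0.36, adjusted p = 3.68e-06). Of 18 other tight junction genes, 12 were lower and 0 higher, led by Tjp1 (-3.12 ± 0.27) and Lsr (-2.86 ± 0.25). Of 17 desmosome and linker genes, 10 were lower and 0 higher, led by Perp (-3.88 ± 0.25) and Pkp2 (-3.83 ± 0.24).

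The exception was Cldn13, a mouse claudin with no human counterpart. It had 13902 by BIIB and 22542 by one-cycle in spleen, against a lowest of 15.5, a median of 208 and a highest of 3668 in the other 14 arrays (5.61 ± 0.61, SE, limma adjusted p = 2.99e-05). Spleen did not overlap any other tissue, and the next level, 3668, was embryo by one-cycle, where BIIB read 537. T and B cells sorted from the spleen of 1 mouse in the same series reached at most 2922, and a macrophage line, RAW267, at most 739. Red-cell precursor genes, a list added after these values were seen, were called higher in spleen for 9 of 10 and in embryo for 5 of 10. Klf1, an erythroid transcription factor, had 35527 and 47473 in spleen and 7138 and 14735 in embryo, against at most 1224 elsewhere. Lymphocyte genes were higher in 7 of 7 in spleen. The part of either cell type in the Cldn13 value was not tested.

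Heart was low in Cldn3, Cldn1 and the simple pair Krt8 and Krt18. Among the 28 genes, 0 were called higher and 8 lower (10.4% and 12.2% of all probe sets tested). Cldn3 had 345.5 by BIIB and 377 by one-cycle in heart, against a lowest of 65.4, a median of 6882 and a highest of 39773 elsewhere (-3.18 ± 0.36, SE, limma adjusted p = 7.6e-05). Cldn1 had 6.0 and 61.9 in heart, below every other array (-2.49 ± 0.26, adjusted p = 3.75e-05). Krt8 (-2.42 ± 0.46) and Krt18 (-1.69 ± 0.38) were lower, and each call ended without the one-cycle array of heart. Cldn2, Krt7, Cldn7 and Cldn5 were lower too, and all 4 calls ended without the BIIB array. That of Cldn2 also ended without the one-cycle array and with a pseudocount of 25. That of Cldn5 also ended under quantile normalization, with a pseudocount of 25 and with no filter. The mean log2 level of Cldn5 in heart, 10.90, was above kidney (10.30) and the arrays labelled brain (10.18). The mean that heart was set against includes lung, at 15.66. Of 20 epithelial identity genes, 14 were lower and 0 higher. Of 17 desmosome and linker genes, 5 were higher and 2 lower. Those higher were Dsp (4.02 ± 0.40) and Pkp2 (3.81 ± 0.24), which join heart muscle cells as well as epithelium, Perp (2.59 ± 0.25), Plec (1.30 ± 0.23) and Dst (1.27 ± 0.27). Those lower were Evpl (-1.65 ± 0.37) and Pkp3 (-1.36 ± 0.37). Des, the muscle intermediate filament, rose by 4.73 ± 0.40.

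The arrays labelled brain, which read as liver, were high in the simple pair Krt8 and Krt18 and low in Krt7. In all, of 28 tested, 5 were called higher and 12 lower (10.7% and 24% of all probe sets tested). Krt18 had 60364 by BIIB and 16438 by one-cycle there, against a lowest of 298, a median of 5457 and a highest of 41441 elsewhere (2.89 ± 0.38, SE, limma adjusted p = 9.83e-05). Krt8 rose by 1.85 ± 0.46 (adjusted p = 0.00746), a call that ended without the BIIB array. Krt7, at 151 and 192, was lower by 2.74 ± 0.55, and Krt19, at 1126 and 1147, by 1.36 ± 0.35 (adjusted p = 0.0019 and 0.0089). Krt19 was not the lowest: spleen and the arrays labelled liver were lower by both protocols. Heart and kidney were lower by one-cycle (777 and 839) but higher by BIIB (3083 and 2944). The mean it was set against includes lung, ovary and embryo, where Krt19 was bright. The 17 calls came to 10 or 11 when either array was left out. Among the lower calls, those of Krt19, Krt15, Cldn5 and Cldn7 ended without the BIIB array, those of Krt1 and Krt80 without the one-cycle array, and those of Krt14, Krt17 and Cldn15 without either. Those of Krt7, Krt10 and Cldn10 held under every alternative. Krt8 and Krt18 are the keratin pair of hepatocytes, while Krt7 and Krt19 mark bile duct cells.

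3 claudins were higher in the arrays labelled brain. Cldn3 had 30094 by BIIB and 15968 by one-cycle there, against a lowest of 65.4, a median of 2962 and a highest of 39773 elsewhere (3.11 ± 0.36, SE, limma adjusted p = 3.72e-05). Cldn2 rose by 2.78 ± 0.71, a call that ended without the one-cycle array, and Cldn1 by 2.04 ± 0.26 (adjusted p = 0.00804 and 7.1e-05). Cldn14 was not tested with the filter and had 522 and 1556 there, against at most 572 elsewhere (1.26 ± 0.37 without the filter, adjusted p = 0.0233). Lsr, a protein of three-cell junctions, rose by 2.91 ± 0.25. Of the epithelial identity genes, 8 of 20 were lower and 0 higher, Epcam among them (-1.76 ± 0.35).

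The arrays labelled liver, which read as brain, were low in simple keratins. From 28 genes tested, 1 was called higher and 11 lower (15.3% and 19.4% of all probe sets tested), and 5 of the 6 simple keratins were among those lower. The 12 calls came to between 5 and 7 when either array was left out. The lower calls of Cldn3 and Cldn15 ended without the BIIB array, and those of Cldn8, Krt15, Krt23 and Krt79 without either. Krt8 had 19.7 by BIIB and 299.5 by one-cycle there, against a lowest of 15, a median of 10675 and a highest of 25438 elsewhere (-4.34 ± 0.46, SE, limma adjusted p = 2.01e-05). Krt19 (-3.65 ± 0.35) and Krt18 (-3.06 ± 0.38) were also lower (adjusted p = 9.09e-06 and 6.09e-05). Cldn10 was the gene called higher (1.00 ± 0.35, adjusted p = 0.0392), at 952.5 by BIIB and 3520 by one-cycle, and the call ended without either array, without the arrays labelled brain, under quantile normalization and with no filter. Cldn11, the claudin of myelin, had 1169 and 4053 there, against at most 403.5 elsewhere, and was called without the filter at 3.37 ± 0.46 (adjusted p = 0.000129). Of 12 other intermediate filament genes, 5 were higher and 3 lower, led by Nefl (6.59 ± 0.31), Nefm and Nefh, the neurofilaments.

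A keratin of the cornea, Krt12, was highest in the arrays labelled liver. Its 2 probe sets read 2654 and 794.5 by BIIB and 1245 and 1472 by one-cycle there. The first had at most 1065 elsewhere, in embryo, and was called without the filter at 2.76 ± 0.45 (SE, limma adjusted p = 0.000518).

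Partners moved together between tissues. Over the 8 tissues, log2 levels of Krt8 and Krt18 had r = 0.91 by one-cycle and 0.96 by BIIB, Krt1 and Krt10 had 0.95 and 0.97, and Krt5 and Krt14 had 0.96 and 0.88. Krt7 and Krt19 had 0.84 and 0.83. Cldn18 and Cldn5, of different cell types, had 0.91 and 0.80. These are descriptions over 8 tissues that share the RNA panel, and for the stratified pairs they rest on embryo, the 1 tissue where both genes were high.

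The protocols were compared within the tissues. By limma with tissue in the model, 3 of the 28 genes tested were higher by BIIB at 500 pg than by one-cycle at 1 ug and 2 were lower, where 12.3% and 24.4% of all probe sets tested were. Krt18 was higher by BIIB in 7 of 8 tissues, by 1.67 ± 0.25 on the log2 scale (SE, adjusted p = 0.000126), and the exception was spleen, where it was low. Krt19 was higher in 7 of 8, by 1.45 ± 0.23, and Krt14 in 8 of 8, by 1.05 ± 0.23 (adjusted p = 0.00021 and 0.00185). Cldn10 was lower in 7 of 8, by 1.37 ± 0.23, and Krt80 in 7 of 8, by 1.05 ± 0.31 (adjusted p = 0.000336 and 0.011). The Krt14 call ended without the heart or the liver-labelled pair, and the Krt80 call without the heart, lung or ovary pair.

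Probe sets of the same gene did not give 1 answer on protocol. Of the 3 for Krt8, BIIB minus one-cycle was -0.49 ± 0.31, 0.92 ± 0.46 and 0.15 ± 0.37, and none was called. Of the 4 for Cldn3, it was 0.75 ± 0.24, 1.03 ± 0.29, 0.81 ± 0.30 and -0.63 ± 0.20, of which 1 was called, and the last was lower by BIIB in 7 of 8 tissues. Cldn18 read 0.76 ± 0.18 on 1 probe set, higher in 8 of 8 tissues, and -0.46 ± 0.42 on the other. Of the 3 for Krt14, the called one differed by only 0.31 in embryo, the tissue where it was bright. Another read 0.43 ± 0.25, higher in 5 of 8 tissues, and was not called. The last, under the filter, was higher by BIIB in 0 of 8 tissues (-1.86 to -0.25). The difference between probe sets of a gene was not tested. In the comparison of tissues they mostly gave the same direction: all 4 of Cldn3 and all 3 of Krt8 were called lower in spleen and higher in lung. Only 1 of the 4 for Cldn1 was called in embryo, heart, spleen and the arrays labelled brain, and the rest were under the filter. For Krt17 and Krt13, 1 of the 2 was called in embryo. Of the 4 for Cldn3, 2 were called in ovary, and of the 3 for Krt8, 2 were called in embryo, kidney and ovary. For Cldn18, 1 of the 2 was called lower in heart, spleen and the arrays labelled brain and liver.

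**Figure D3:**
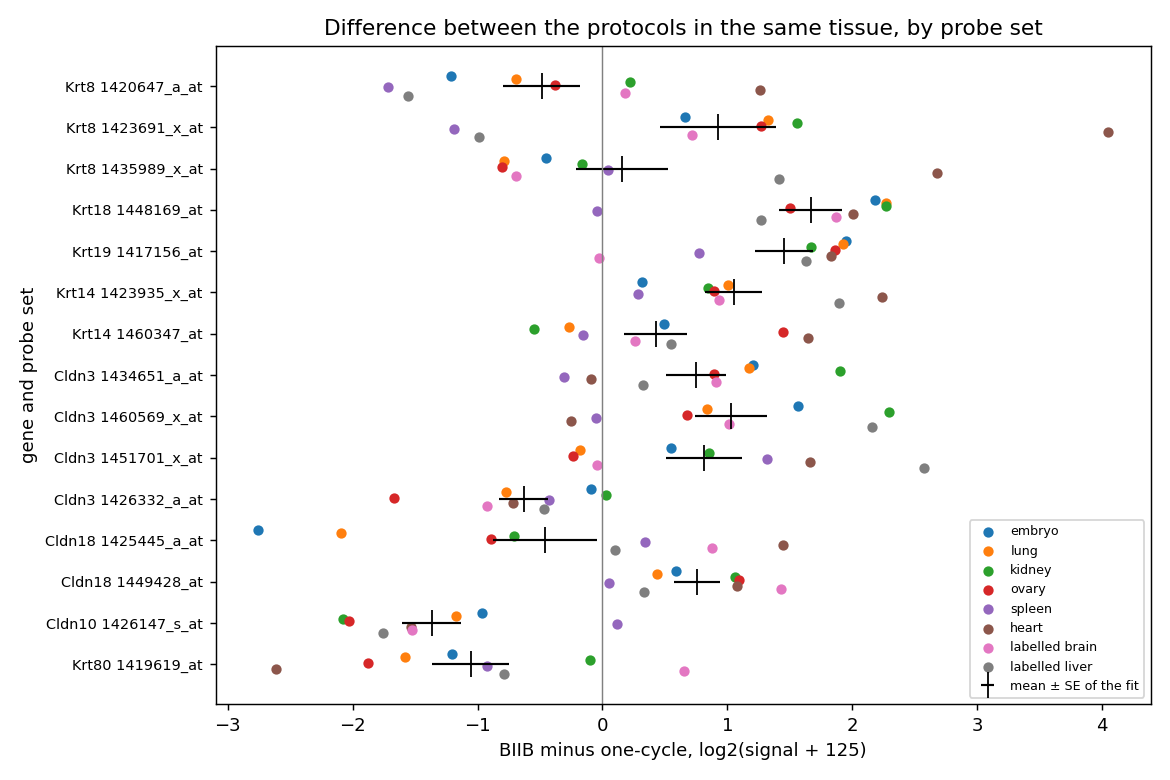
BIIB minus one-cycle in the same tissue on the log2(signal + 125) scale, 1 row for each tested probe set of 8 genes, with tissues as coloured points and the mean ± SE of the limma fit in black. Krt18 and Krt19 lie right of 0 in 7 of 8 tissues and Cldn10 left of 0 in 7 of 8, while rows of Krt8, Cldn3 and Cldn18 fall on both sides.

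Universal RNA had simple keratins and few claudins. Its 8 arrays by BIIB at 500 pg and one-cycle were set against the mean of the 8 tissues, with protocol in the limma model. Of 24 genes tested, 5 were called higher and 10 lower (14.3% of all probe sets tested in each direction). All 5 higher were keratins, and 7 of the 8 claudins tested were lower. Those 7 claudins averaged under 500 in universal RNA by both protocols, so they passed the filter only through tissue arrays. Krt20 passed it only through universal RNA. The counts therefore describe these genes and support nothing beyond that. Krt18 had 60880, 57225, 57313 and 82760 in universal RNA by BIIB and 28919, 28919, 28284 and 29066 by one-cycle, and in tissues at most 60364 by BIIB and 16438 by one-cycle. It was higher than the tissue mean by 2.97 ± 0.18 (SE, adjusted p = 7.19e-11). Krt8, at 25129 to 28159 by BIIB and 21135 to 22917 by one-cycle, was higher by 2.83 ± 0.23, and all 3 of its probe sets were called. Krt20, an intestinal keratin, rose by 2.08 ± 0.28, Krt19 by 1.63 ± 0.20 and Krt13 by 1.19 ± 0.18 (adjusted p at or under 1.25e-05). These are changes from the tissue mean, and single tissues were higher for Krt19 and Krt13. Krt19 averaged 13455 by BIIB and 6189 by one-cycle in universal RNA, under lung, ovary and embryo by both protocols. Krt13 averaged 748 and 577 there, against 12869 and 8065 in embryo.

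Among claudins, Cldn5 had 46.3 to 238 by BIIB and 67.2 to 335 by one-cycle in universal RNA, under the lowest tissue array (819). It was lower by 3.66 ± 0.21, and Cldn3, on all 4 probe sets, by 3.39 ± 0.21 (SE, limma adjusted p = 2.66e-11 and 8.18e-11). Cldn2 (-2.26 ± 0.35), Cldn10 (-1.92 ± 0.20), Cldn1 (-1.67 ± 0.21), Cldn13 (-1.47 ± 0.29) and Cldn18 (-1.17 ± 0.32) were lower as well, as were Krt23, Krt5 and Krt10. Krt10's call ended without 1 BIIB array (replicate 4). A signal of 500 was reached on all 4 arrays by 4 keratins and 0 claudins by BIIB, and by 9 keratins and 1 claudin, Cldn7, by one-cycle.

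**Figure D4:**
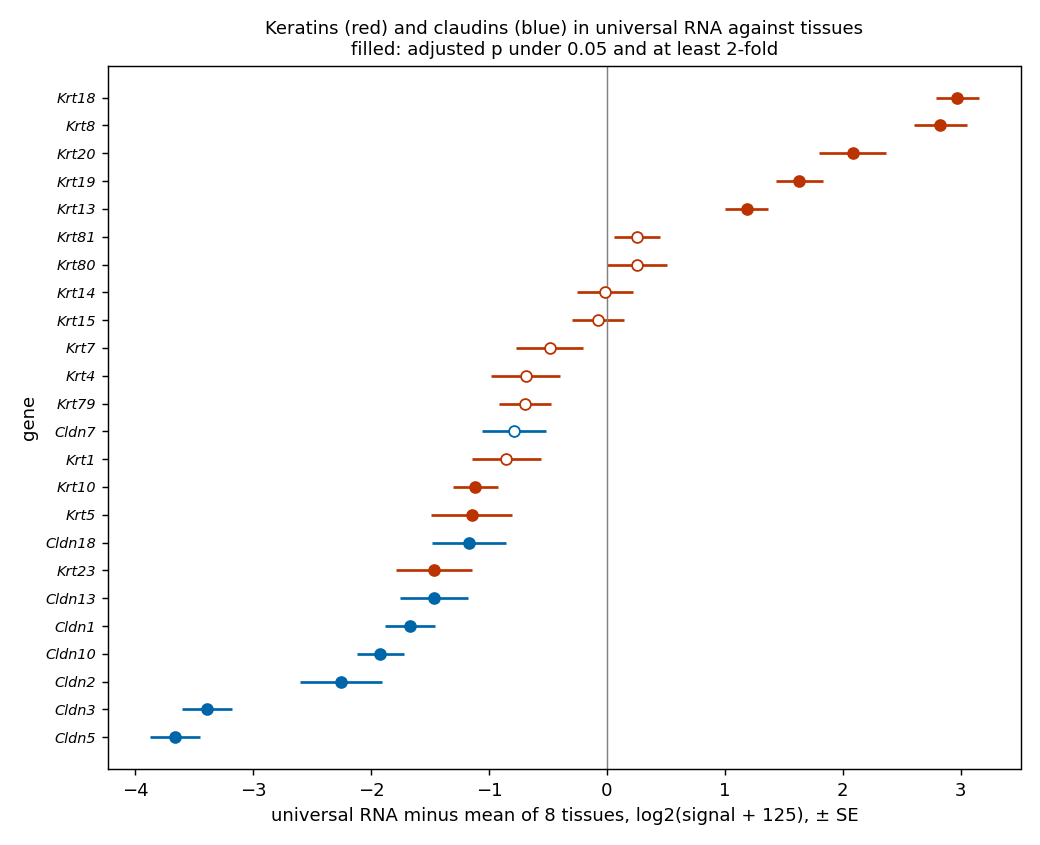
Universal RNA minus the mean of 8 tissues, as log2(signal + 125) ± SE of the limma fit, for the 24 members tested, with keratins in red, claudins in blue and called genes filled. The 5 genes called higher are keratins, and 7 of the 10 called lower are claudins, which passed the signal filter only through tissue arrays.

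Within universal RNA, BIIB at 500 pg was set against one-cycle with 4 arrays each. Of 10 genes tested by limma, 3 were called higher and 1 lower (13.5% and 27.3% of all probe sets tested). Krt18 was higher by 1.14 ± 0.15, Krt20 by 1.12 ± 0.23 and Krt19 by 1.00 ± 0.28 (SE, adjusted p = 0.00013, 0.00185 and 0.0102). Krt18 and Krt19 had the same direction in tissues. Quantile normalization ended both calls, and that of Krt19 also ended when BIIB replicate 1 or 2, or one-cycle replicate 1 or 2, was left out. Krt20 lost its call without BIIB replicate 3. Krt81, a hair keratin, was lower by 1.95 ± 0.30 (adjusted p = 0.000342). In tissues Krt81 was under the filter and was higher by BIIB in 0 of 8 (-2.84 to -1.10). Without the filter it was called lower by BIIB there (-1.88 ± 0.23, SE, limma adjusted p = 2.91e-05). 1 probe set of Krt8 read 36947 to 37964 by BIIB and 16612 to 17394 by one-cycle and was called (1.13 ± 0.12, adjusted p = 2.4e-05), while the other 2 were not.

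The change between protocols was then set against that in tissues, as an interaction. 1 of 24 genes was called larger in universal RNA and 0 smaller (0.424% and 0.603% of all probe sets tested). This was Krt15, whose signals in universal RNA were 487, 665, 834 and 657 by BIIB at 500 pg and 84.0, 82.9, 30.7 and 20.2 by one-cycle. The difference of the changes was 1.46 ± 0.30 (SE, limma adjusted p = 0.028). It was not called without BIIB replicate 3 or without any 1 of the 4 one-cycle arrays.

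Input was followed by BIIB over universal RNA. Against 5 ng, 0 members were called at 1 ng, 500 pg, 100 pg or 50 pg by limma, with 7, 8, 7 and 10 genes tested and 0, 0, 1 and 1 at an unadjusted p under 0.05. Of all probe sets tested, 0% were called in each direction at 1 ng and 500 pg, 0.102% higher and 0.683% lower at 100 pg, and 0.0172% higher and 1.01% lower at 50 pg. At 10 pg, 3 of 9 genes were lower and 0 higher (11.4% and 0.729%). Krt20 had 58.1, 23.0, 33.5 and 39.6 at 10 pg, against 1960, 1644, 1355 and 1578 at 5 ng (-3.42 ± 0.38, SE, adjusted p = 0.00184). Krt7 had 97.0, 185, 178 and 147 at 10 pg, against 1659, 1086, 1529 and 889 at 5 ng (-2.33 ± 0.41, adjusted p = 0.00819). No array at 10 pg overlapped one at 5 ng for either gene, but both passed the filter only through their 5 ng arrays. These calls therefore describe the 2 genes and support nothing beyond that. Krt13 was lower by 1.83 ± 0.49 (adjusted p = 0.0401). Its call ended without 5 ng replicate 2, 3 or 4, and with replicate number as a block, when Krt20 alone stayed called.

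Krt8 and Krt18 were not called at any input, while their arrays spread more widely at the lowest inputs. Krt18 averaged 64383 ± 37071 at 10 pg, 72586 ± 17980 at 50 pg, 68231 ± 4067 at 100 pg, 64545 ± 12262 at 500 pg, 60407 ± 9408 at 1 ng and 49607 ± 5437 at 5 ng (SD, n = 4 each). Krt8 averaged 23776 ± 15408 at 10 pg, 17178 ± 8790 at 50 pg, 25919 ± 4160 at 100 pg, 26936 ± 1283 at 500 pg, 25243 ± 1113 at 1 ng and 26013 ± 2228 at 5 ng. At 10 pg the 4 arrays of Krt8 ran between 9800 and 45435.

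**Figure D5:**
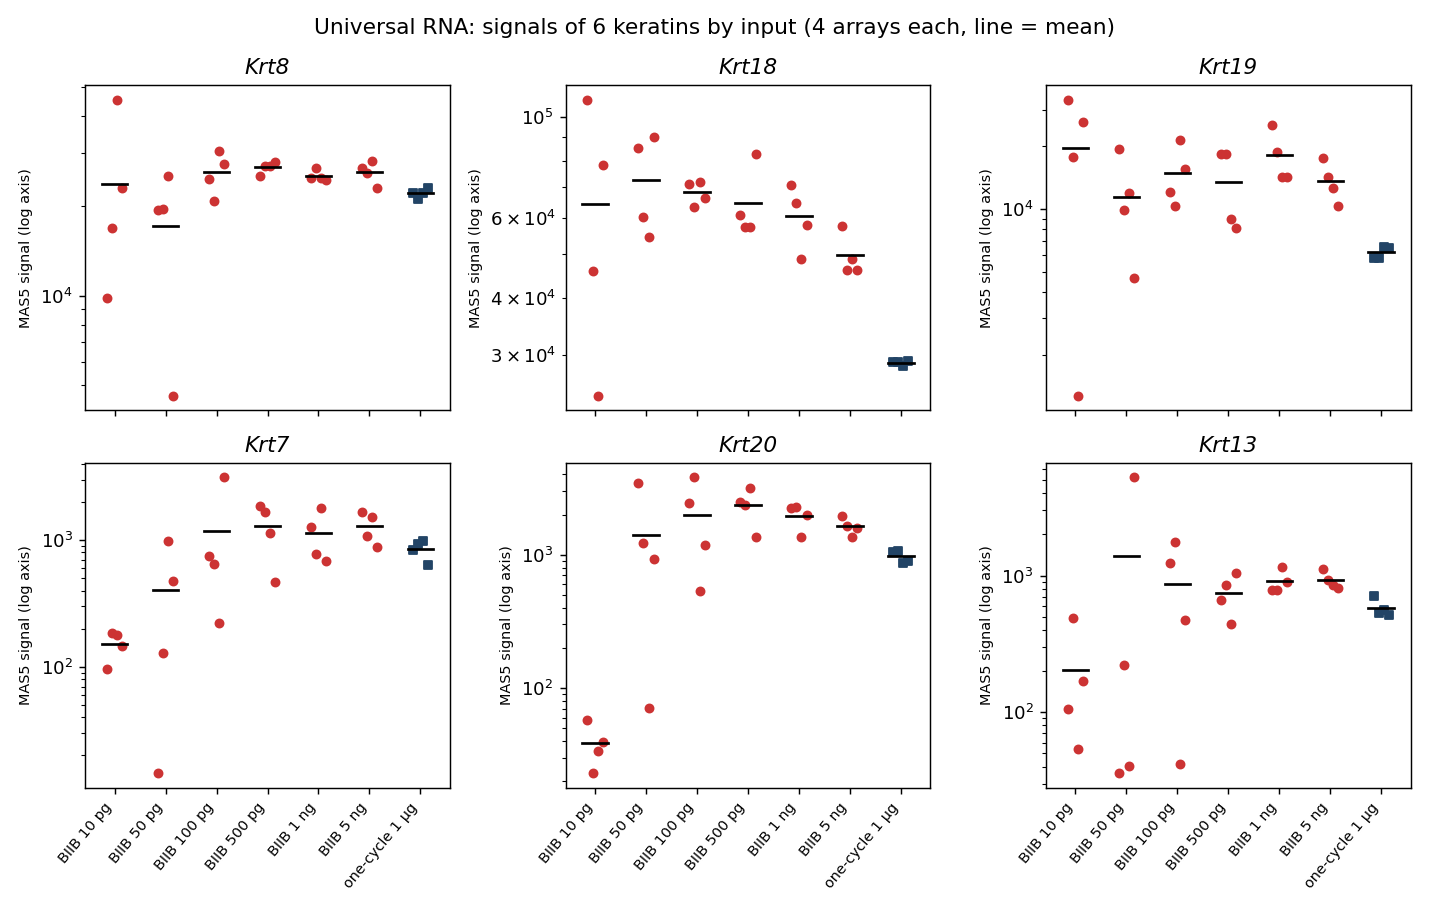
MAS5 signals (log axis) of 6 keratins in universal RNA by BIIB input, 10 pg to 5 ng (circles), with the one-cycle arrays (squares) at the right, 4 arrays each and the mean as a line. The spread of Krt8 and Krt18 widens at 10 and 50 pg, and Krt20 and Krt7 lie below their 5 ng arrays at 10 pg.

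The 3 kits were compared at 50 pg with 500 ng, with 2 arrays each. By limma over the 10 arrays of each kit, two-cycle had 1 member called higher and 0 lower of 29 tested (0.0435% and 0.149% of all probe sets), Ovation 5 higher and 3 lower of 16 (10.8% and 16.1%), and RiboAmp HS 13 higher and 0 lower of 32 (10.3% and 3.91%). At 500 ng against one-cycle, only 10, 10 and 9 members passed the filter for these kits. A gene can pass here through low-input arrays alone, so the counts describe the genes tested and support nothing beyond that. With Ovation, Krt18 had 6347 and 1369 at 50 pg, against 25751 and 30227 at 500 ng (-3.17 ± 0.91, SE, adjusted p = 0.0345), and Krt19 had 135 and 383, against 2283 and 3058 (-2.93 ± 0.63, adjusted p = 0.013). With RiboAmp HS, Krt15, which passed the filter through its 50 pg arrays, had 1562 and 5760 at 50 pg, against 76.3 and 64.3 at 500 ng (4.01 ± 0.86, adjusted p = 0.0261). The arrays at 50 pg differed widely: Krt8 by two-cycle read 56237 and 9211. For Ovation and RiboAmp HS, leaving out either 500 ng array ended every call, and for two-cycle the count ran from 0 to 27 as arrays were left out.

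At 500 ng each kit was set against one-cycle, with 9 or 10 of the 59 members tested. Two-cycle had 0 calls of 10 tested and 6 at an unadjusted p under 0.05 by limma (1.23% of all probe sets were called higher and 10.4% lower). Ovation had 0 higher and 3 lower of 10 (15.1% and 31.9%), and RiboAmp HS 1 higher and 2 lower of 9 (14.1% and 33.9%). At an unadjusted p under 0.05 were 6 of 10 with Ovation and 5 of 9 with RiboAmp HS. Without the filter 8 and 6 of the 59 members were called, where 34.5% and 32.4% of all 22626 probe sets were. Krt19 was lower with both, by 1.19 ± 0.14 with Ovation (2283 and 3058) and by 1.65 ± 0.17 with RiboAmp HS (1504 and 2349), against 5819, 5831, 6593 and 6513 by one-cycle (SE, adjusted p = 8.53e-05 and 3.58e-05). Krt10 was lower with Ovation by 1.06 ± 0.15 and higher with RiboAmp HS by 1.01 ± 0.12 (adjusted p = 0.000263 and 7.76e-05), and both calls ended when kit replicate 1 was left out, as did the Krt19 call with Ovation. The kits share the one-cycle arrays as their reference.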

How the data were processed

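RNA was measured on 1 Affymetrix mouse array design in 103 samples, of which the 16 tissue and 58 universal RNA arrays were compared. Groups, inputs and replicate numbers came from the labels. The deposited values were MAS5 signal intensities, 1 per probe set and array, with no scaling target stated. Neither its version nor its settings were given in the sources used here. The number of arrays limits the precision.

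Arrays came with nearly equal trimmed means, 2500.23 to 2502.45, and were set to 1 value (2501). Then log2(signal + 125) was fitted with limma 3.58.1 in R 4.3.3. The 64 control probe sets and those with a mean under 500 in a fit were left out, so n tested differs between comparisons. Calls needed an adjusted p under 0.05 and a 2-fold change. The fits were tested on simulated data. Genes came from the platform annotation: 20393 probe sets had 1 symbol, 691 had several and were not named, and all 76 members matched a current gene. Named were the members called in a comparison and those on role lists. The members and the lists were chosen with earlier results of these data known. Replicate numbers did not pair arrays in the main fits and entered only as a block among the alternatives. Of the comparisons with 4 pairs, only BIIB 500 pg against 5 ng had all correlations of deviations above 0.1 (0.1300 to 0.2489). There 2 of the 4 arrays correlated best with the array of their own number. Two-cycle at 50 pg against 500 ng, with 2 pairs, had 0.1137.

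Alternatives were quantile normalization, a pseudocount of 25, no filter, arrays left out, a replicate block, all 24 BIIB arrays in 1 fit and, chosen after seeing the data, a split of replicates 1 and 2 from 3 and 4.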

Additional observations from a re-analysis of the deposited data

Results flagged for a closer look

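Among 60 groups of 4 universal RNA arrays in which a member averaged at least 500, an array stood far from the other 3 in 4, and chance gives this in about 1 group in 20. Krt8 read 4622 in BIIB 50 pg replicate 4, where the other 3 arrays lay between 19370 and 25154. Krt8 read 26896 in BIIB 1 ng replicate 2, where the others lay between 24472 and 24834. Krt18 read 82760 in BIIB 500 pg replicate 4, where the others lay between 57225 and 60880. Cldn14 read 1773 in BIIB 10 pg replicate 1, where the others lay between 534 and 548. Krt15 changed between protocols by 1.46 more on the log2 scale in universal RNA than in tissues, by a test of the difference itself (limma adjusted p = 0.028).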

How the results depend on the processing

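The results concern 158 single changes and the counts of members called in each comparison. Of 1359 single values under alternatives, 1092 kept sign and call, 219 kept the sign but were no longer called, 48 values taken within 1 protocol, which have no test, moved by more than the spread, and 0 reversed. Without a filter on signal, 32 members were called in embryo, 44 for any difference across tissues, 8 for BIIB against one-cycle in tissues, 12 for the same in universal RNA, 0 for the difference of protocol changes, 0 for two-cycle at 50 pg, and against one-cycle 8 for the Ovation kit and 6 for RiboAmp HS, each from 500 ng. These are counts of 59 members. In the same order, 11.6%, 53.5%, 29.1%, 30.8%, 0.362%, 0%, 34.5% and 32.4% of all 22626 probe sets were called. A pseudocount of 25 gave 5 in kidney, 9 for BIIB against one-cycle in tissues and 0 for two-cycle at 50 pg. Quantile normalization gave 2 for BIIB against one-cycle in universal RNA, 5 for Ovation from 500 ng against one-cycle, and 5 where RiboAmp HS was compared at 50 pg. Without the arrays labelled brain and liver, kidney had 16, embryo 21 and lung 16. With replicate number as a block, BIIB at 10 pg had 1, two-cycle at 50 pg 0 and RiboAmp HS at 50 pg 8. The block kept every other count within 1.5 times, 0 for BIIB at 500 pg against 5 ng included. The cause of these shifts was not tested.

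With arrays left out in turn, calls ranged from 10 to 11 in arrays labelled brain, 14 to 15 in embryo, 4 to 6 in heart, 4 to 4 in kidney, 5 to 7 in arrays labelled liver, 10 to 10 in lung, 2 to 4 in ovary and 10 to 13 in spleen. Any difference ranged from 25 to 28, BIIB against one-cycle from 4 to 8 in tissues and 3 to 5 in universal RNA, their difference from 0 to 1, and universal RNA against tissues from 15 to 16. BIIB at 50 pg had 0 to 1 and at 10 pg 2 to 3. At 50 pg, two-cycle ranged from 0 to 27, Ovation from 0 to 12 and RiboAmp HS from 0 to 23. At 500 ng, Ovation ranged from 2 to 4 and RiboAmp HS from 1 to 4.

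A tissue has 1 array per protocol, so its error comes from how the difference between protocols varied over all tissues. A tissue left with 1 array is assumed to vary like the others. Genes near background, most hair keratins among them, have no order between tissues here.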
